A study of Oryza sativa with 3 samples.

Results

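The PHT1 phosphate transporters of rice were measured in seedling roots exposed to vanadate or to water. The set comprised 9 loci, picked by locus ID and not by a measured value, though with earlier results of these data known. On the array 29 probes carry these IDs, out of 29859 loci and 42418 gene probes. In the order of the family numbers they are PT1 (Os03g0150600), PT2 (Os03g0150800), PT3 (Os10g0444600), PT4 (Os04g0186400), PT5 (Os04g0185600), PT6 (Os08g0564000), PT7 (Os03g0136400), PT8 (Os10g0444700) and PT11 (Os01g0657100). Seedlings of the rice (Oryza sativa) cultivar TN67 were germinated and grown in the dark in distilled water, and were 6 days old. Roots received either 1 mM vanadate or water, and fixed volumes of RNA taken at 1 h and 3 h were combined, so the times cannot be separated. Each of 3 biological replicates was hybridised on 1 two-colour array, with vanadate RNA in Cy5 and water RNA in Cy3, and 0 arrays had the dyes exchanged. A difference between the dyes, if the same on each array, and an effect of vanadate therefore cannot be told apart.

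PHT1 proteins sit in the plasma membrane and carry phosphate into the cell together with protons, using the gradient that the plasma membrane proton pump builds. Vanadate resembles phosphate in shape and charge, and arsenate, another phosphate analogue, is known to enter rice roots through members of this family. In phosphate-starved roots, transcription of many PHT1 genes is raised by the factor PHR2, which SPX proteins hold back when phosphate is ample. Among the members, PT6 and PT8 are high-affinity uptake transporters, PT2 is a low-affinity transporter that moves phosphate from root to shoot, PT1 is expressed without starvation, and PT11 is known from roots colonised by mycorrhizal fungi.

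The RefSeq gene table of assembly ASM3414082v1 carries the OsPht1 name for 12 of the 13 family names looked up, PT9 being the exception, and each of these 12 lay on the chromosome that the locus ID gives. In that table PT12, PT1 and PT2 follow one another on chromosome 3 with 0 protein-coding genes between neighbours. PT3 and PT8 are likewise adjacent on chromosome 10, and PT4 and PT13 on chromosome 4, where PT5 is 1 gene away from PT4. The alias OsPT1 is listed for 4 different loci, those of PT1, PT2, PT3 and PT4, so the locus ID is the identity used here. Whether a probe also binds the transcript of a closely related member was not tested.

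Between arrays, Pearson's r across tested probes, which are not independent replicates, ran from 0.89 to 0.93. Replicates 1 and 2 shared a slide and replicate 3 was on another. As a check of the tissue, all 4 probes of the root loci Lsi1, Lsi2 and RCc3 were clearly detected in each channel of every array. These loci also differed between the channels, and the part of this in the results was not tested. The silicon transporters Lsi1 and Lsi2 were called lower at log2 ratios of -2.06 and -1.02 (limma adjusted p = 0.000399 and 0.00691), and -2.23 and -1.17 without replicate 3. The 2 probes of RCc3 were called in opposite directions, at 0.68 and -0.28 (limma adjusted p = 0.00381 and 0.0435), and stood at 0.83 and -0.19 without replicate 3, the latter not called. Of 18 probes for the green-tissue genes RbcS, CAB1R and CAB2R, 4 and 2 were well above background in the water channel of replicates 1 and 2, but 16 in that of replicate 3, against 7, 8 and 10 in the vanadate channel. Their summed normalized intensity was 2074, 2043 and 7611 in water and 2357, 2294 and 2438 in vanadate for replicates 1, 2 and 3. All 18 probes enter these sums, also those not well above background. Over all gene spots, 69.9%, 69.0% and 75.3% were well above background in the water channel of replicates 1, 2 and 3. Median local background there was 62.5, 62 and 37. The water channel of replicate 3 thus stood apart, also beyond the green-tissue genes, and its part in the results was not tested. Values without replicate 3, which are also the values within the slide of replicates 1 and 2, are therefore given as well. They stand beside the counts and medians of the PHT1 and signalling loci. The main value of each tested PHT1 locus and of PHR2, PHO1;2 and SPX3 also has its value without replicate 3 beside it. Those fits rest on only 2 arrays of 1 slide, so a smaller adjusted p there is not stronger evidence.

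Most PHT1 transcripts that were detected in these roots were higher in vanadate than in water, and none was called lower. Of the 9 loci, 6 could be tested and 5 of these were called higher: PT8, PT3, PT1 and PT4 by 1.68-fold to 2.01-fold, and PT2 by 1.29-fold on 1 of its 8 probes. PT6 was not called, and PT5, PT7 and PT11 were too dim to test. A locus was called when its brightest tested probe had an adjusted p under 0.05 in limma (Benjamini-Hochberg over all tested probes), and over all tested genes 29.1% were called higher and 20.6% lower. Without replicate 3, 4 loci were called higher, PT2 being lost, against 26.7% of all tested genes. The median log2 ratio (vanadate over water) of the 6 tested loci was 0.80, against 0.023 over all tested genes, with medians of 0.69, 1.03 and 0.64 on replicates 1, 2 and 3. Without replicate 3 it was 0.86. Testing required a signal on at least 2 arrays, so the 6 are not a sample of the whole family. The count lower was 0 in limma, against 20.6% of all tested genes. It was also 0 at an unadjusted p under 0.05, where the share of all genes was not counted.

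Counted over probes, 20 of the 29 were tested, 10 were called higher, 0 lower and 10 not called, where 28.4% of all tested probes were called higher and 20.8% lower. Without replicate 3, 9 probes were called higher, against 8180 of all 31159 tested probes. Of the 9 untested probes, 8 were not well above background in either channel on any array and 1, of PT6, was above it on 1 array only. In whole roots, more or fewer cells that hold a transcript and more or less of it per cell cannot be told apart.

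**Figure D1:**
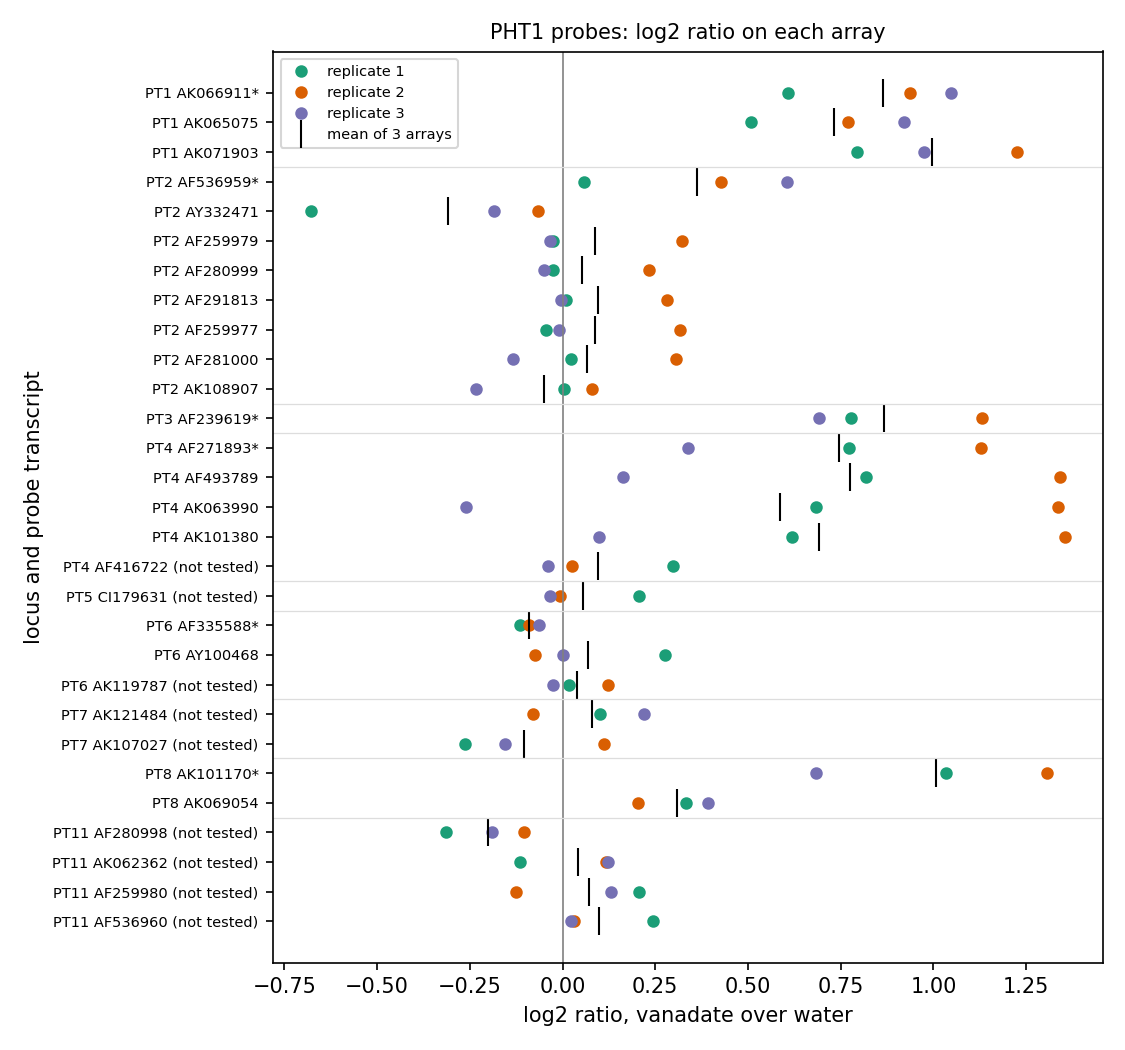
Log2 ratio of vanadate over water (x axis) for every probe of the 9 PHT1 loci (y axis, named by locus and probe transcript). Each point is 1 of the 3 arrays, the bar is their mean, and an asterisk marks the probe that stands for its locus. All probes of PT1 lie between 0.51 and 1.23, the probes of PT4 spread from -0.26 to 1.35 where tested, and the probes of PT6, PT7 and PT11 scatter around 0.

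PT8, a high-affinity uptake transporter that also carries arsenate in rice, was called higher on both of its probes. Its log2 levels were 10.79, 11.49 and 10.52 in water and 11.83, 12.80 and 11.20 in vanadate for replicates 1, 2 and 3 (normalized intensity of the probe for transcript AK101170). Vanadate was higher on every array, while the ranges of the water and vanadate levels overlapped because the 3 replicates differed in both channels. The log2 ratio was 1.01 ± 0.13 (SE, n = 3), a 2.01-fold rise (95% interval 1.63 to 2.48, limma adjusted p = 0.00114), and 1.17 without replicate 3 (limma adjusted p = 6.45e-05). The other PT8 probe, for transcript AK069054, gave a smaller rise. Its log2 ratios were 0.33, 0.20 and 0.39, with a mean of 0.31 ± 0.08 (SE, limma adjusted p = 0.021), and it was not called without any one of the 3 replicates. As a mean over both probes PT8 stood at 0.66 and was still called.

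PT6, also a high-affinity transporter, did not follow. Its bright probe for AF335588 read 14.52, 14.79 and 15.41 in water and 14.41, 14.70 and 15.34 in vanadate on the log2 scale. The ratios were -0.11, -0.09 and -0.06, so the arrays lay within a narrow band just under 0. The mean log2 ratio was -0.09 ± 0.08 (SE, limma adjusted p = 0.357). Its 95% interval of -0.27 to 0.09 runs from a 1.21-fold fall to a small rise. With the channels as separate samples the SE was 0.30, so the interval is not a firm bound. Without replicate 3 the mean was -0.10 (limma adjusted p = 0.436). A second tested probe of PT6, for AY100468, was at 0.068 ± 0.096 (SE, limma adjusted p = 0.581). On each array the ratio of PT6 was below that of the representative probes of PT1, PT2, PT3, PT4 and PT8, a difference between loci that was not tested. The sign of the PT6 ratio turned under median centring, at 0.023.

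PT4 also takes up phosphate in rice roots. The levels of its representative probe, for AF271893, were 12.00, 12.61 and 12.71 in water and 12.77, 13.74 and 13.05 in vanadate. Every vanadate level was above every water level, but the margin on replicate 3 was small, with ratios of 0.77, 1.13 and 0.34 on replicates 1, 2 and 3. The mean log2 ratio was 0.75 ± 0.15 (SE, limma adjusted p = 0.00745), a 1.68-fold rise (95% interval 1.31 to 2.15), and 0.95 without replicate 3 (limma adjusted p = 0.000314). Of the other tested PT4 probes, those for AF493789 and AK101380 were called higher at 0.77 and 0.69 (limma adjusted p = 0.0216 and 0.0388), and that for AK063990 was not called at 0.59 ± 0.27 (SE, limma adjusted p = 0.117). The call of AF493789 was lost without replicate 1 (limma adjusted p = 0.0893) and with Feature Extraction's processed signals (limma adjusted p = 0.0761), and its ratio was 0.49 without replicate 2. AK101380 was not called without replicate 1 (limma adjusted p = 0.111), with the processed signals (limma adjusted p = 0.0986) or without replicate 2, where it was at 0.36 (limma adjusted p = 0.103). Without replicate 3 these 2 probes were at 1.08 and 0.99, and AK063990 was called higher at 1.01 (limma adjusted p = 0.000936), against 0.21 without replicate 2. All 4 tested probes had their lowest ratio on replicate 3, and AK063990 was below 0 there, at -0.26. Its water level on that array, 10.53, was the highest of its 3 water levels, which were 8.66 and 9.52 on replicates 1 and 2. The remaining PT4 probe, for AF416722, was dim in both channels throughout.

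PT1, whose transcript is known to be present in root and shoot at ample phosphate, was called higher on all 3 of its probes. Its representative probe, for AK066911, read 8.57, 8.26 and 8.71 in water and 9.18, 9.19 and 9.75 in vanadate on the log2 scale. No vanadate level reached down to a water level. The log2 ratio was 0.86 ± 0.11 (SE, limma adjusted p = 0.00104), a 1.82-fold rise (95% interval 1.52 to 2.17), and 0.77 without replicate 3 (limma adjusted p = 0.000899). The probes for AK065075 and AK071903 were called higher as well, at 0.73 ± 0.10 and 1.00 ± 0.10 (SE). Across the 3 probes the single-array ratios ran from 0.51 to 1.23, with the lowest of each probe on replicate 1. PT1 was also the only one of the 6 tested loci still called when the channels were treated as separate samples, which gives up the pairing on the array, at a limma adjusted p of 0.0213.

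PT3, the neighbour of PT8 on chromosome 10, is represented by a single probe, for AF239619. Its levels were 11.39, 12.15 and 11.89 in water and 12.16, 13.28 and 12.59 in vanadate. The ranges did not overlap, though the lowest vanadate level exceeded the highest water level by little. The ratios of 0.78, 1.13 and 0.69 gave a mean of 0.87 ± 0.11 (SE, limma adjusted p = 0.00105), a 1.82-fold rise (95% interval 1.53 to 2.18), and 0.95 without replicate 3 (limma adjusted p = 0.000298). In both PT3 and the representative probe of PT8, replicate 2 was the highest in each channel and in the ratio. With 1 probe, PT3 has no second reading on the array.

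**Figure D2:**
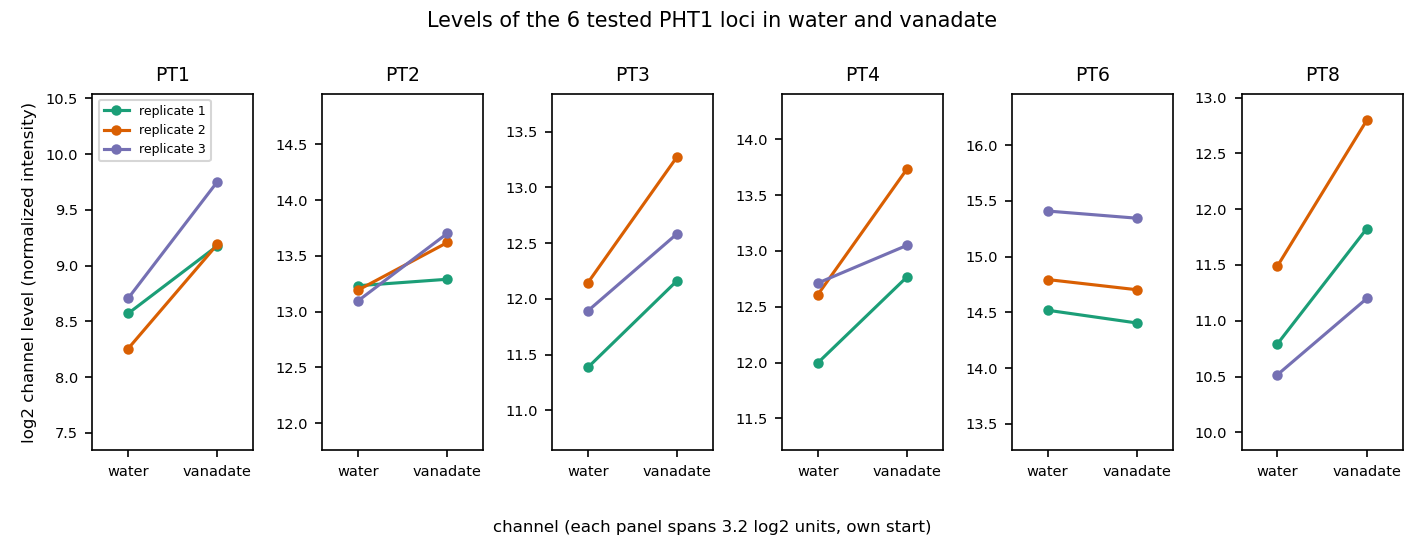
Log2 channel level (normalized intensity, y axis) of the representative probe of each tested PHT1 locus in the water and the vanadate channel (x axis), with a line for each replicate. Panels have the same height in log2 units but different starts, so levels are not compared between probes; the lines of PT1, PT3, PT4 and PT8 rise on all arrays, and those of PT6 are nearly flat.

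PT2, the root-to-shoot transporter, had 8 probes, all detected in water and in vanadate on each array, and these probes differed in direction. The representative probe, for AF536959, read 13.23, 13.19 and 13.10 in water and 13.29, 13.62 and 13.70 in vanadate. Its ratios of 0.06, 0.43 and 0.60 gave a mean of 0.36 ± 0.12 (SE, limma adjusted p = 0.0421), a 1.29-fold rise. The 5 other probes named for coding sequence alone moved together: their ratios ran from -0.045 to 0.024 on replicate 1, from 0.23 to 0.32 on replicate 2 and from -0.13 to -0.0054 on replicate 3, and their means from 0.052 to 0.095 (limma adjusted p from 0.418 to 0.655). The 2 probes named for coding sequence plus 3' untranslated region gave -0.05 ± 0.09 (SE) for AK108907 and -0.31 ± 0.13 (SE, limma adjusted p = 0.09) for AY332471, the latter with ratios of -0.68, -0.07 and -0.19. The probes for AF536959 and AY332471 thus lay on opposite sides of 0 on each array, and that contrast was seen in the data and not tested. The call of PT2 was lost under 8 of the 12 alternatives. As a mean over its probes PT2 stood at 0.049 (limma adjusted p = 0.67), and without replicate 3 its representative probe was at 0.24 (limma adjusted p = 0.133).

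The water and vanadate levels of the representative probe did not overlap, with vanadate above, in 4 of the 6 tested loci (PT1, PT2, PT3 and PT4), and the same pattern held in 23.8% of all tested genes. The reverse pattern held in 0 of the 6 loci and in 16.6% of all tested genes. Over replicates 1 and 2 alone, vanadate lay above without overlap in 5 of the 6 loci and in 35.5% of all tested genes. It lay below without overlap in 0 of the 6 loci and in 28% of all tested genes.

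PT5, PT7 and PT11 gave no usable signal. Their 7 probes were not well above background in either channel on any array, and with the dim PT4 probe the 8 such probes ranged from 6.09 to 6.70 in log2 level over all channels and arrays. Single-array ratios of these 8 probes ran from -0.31 to 0.30. For PT11, the mycorrhiza-associated member, all 4 probes were dim in both channels. No fold is given for these loci, since both channels lie at background. The other family names behaved in the same way: the single probes of PT9, PT12 and PT13 were dim in both channels on all arrays, and that of PT10 was well above background in vanadate on 1 array only. The loci of these 4 names come from background knowledge. Among neighbours on the chromosome, PT1 rose beside dim PT12, PT4 rose beside dim PT13, and PT3 and PT8 rose together.

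Of 12 loci of phosphate signalling and phosphate traffic, listed from background knowledge, 11 were tested, 1 was called higher, 2 lower and 8 not called, against 29.1% higher and 20.6% lower over all tested genes. Their median log2 ratio was -0.028. Without replicate 3, 0 were called higher and 2 lower, against 26.7% higher and 17% lower over all tested genes. The median of the signalling loci was then -0.030. PHR2 (Os07g0438800), the factor that activates PHT1 genes in starvation, was called higher on 2 of its 4 probes. Its representative probe had ratios of 0.18, 0.31 and 0.51 and a mean of 0.33 ± 0.09 (SE, limma adjusted p = 0.0244), a 1.26-fold rise, and stood at 0.25 without replicate 3 (limma adjusted p = 0.0824). It was also not called without replicate 2 (limma adjusted p = 0.0882), under median centring (limma adjusted p = 0.325) or in the authors' deposited table (limma adjusted p = 0.129).

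PHO1;2 (Os02g0809800), an exporter that loads phosphate into the xylem, fell. Its levels were 10.69, 10.99 and 10.97 in water and 9.71, 10.30 and 10.06 in vanadate. The ranges were separate, with vanadate lower on every array. The log2 ratio was -0.86 ± 0.09 (SE, limma adjusted p = 0.00056), a 1.81-fold fall (95% interval 1.56 to 2.10), and -0.83 without replicate 3 (limma adjusted p = 0.00051). PHO1;2 was called lower under all 12 alternatives.

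SPX3 (Os10g0392600), a repressor whose transcript is known to accumulate in phosphate starvation, was lower at -0.42 ± 0.08 (SE, limma adjusted p = 0.00754). In vanadate its probe never rose well above background, and in water it did so on 2 arrays. The estimate was a 1.34-fold fall (95% interval 1.16 to 1.54). With the vanadate channel near background, the size of the SPX3 fall is uncertain. The size of its ratio differed between settings: it was -1.51 in the authors' deposited table and with the processed signals (limma adjusted p = 0.00278 in each), and -0.65 at normexp offset 10. The call was lost without replicate 2 (limma adjusted p = 0.0649) and under median centring (limma adjusted p = 0.0619). It was also lost with the channels as separate samples (limma adjusted p = 0.0634), and the strict filter left SPX3 untested. Without replicate 3 the log2 ratio was -0.44 (limma adjusted p = 0.0111). SPX1, SPX2, SPX4, SPX5 and SPX6 were not called, with log2 ratios between -0.21 and 0.073. With the processed signals SPX2 and SPX5 were called lower, at -0.85 and -0.41 (limma adjusted p = 0.0171 and 0.0181). PHO2, which marks phosphate transporters for breakdown, was at 0.14 ± 0.08 (SE), PHR1 at 0.20 ± 0.09 (SE), and PHF1, which helps PHT1 proteins leave the endoplasmic reticulum, at -0.0019 ± 0.11 (SE), and none of these was called. With the slide as a fixed block, PHR1 was called higher at 0.25 (limma adjusted p = 0.0396). SPX2 was then called lower at -0.25 (limma adjusted p = 0.0423). IPS1, a non-coding RNA and a common marker of phosphate starvation, had 3 probes that were dim in both channels on all arrays.

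**Figure D3:**
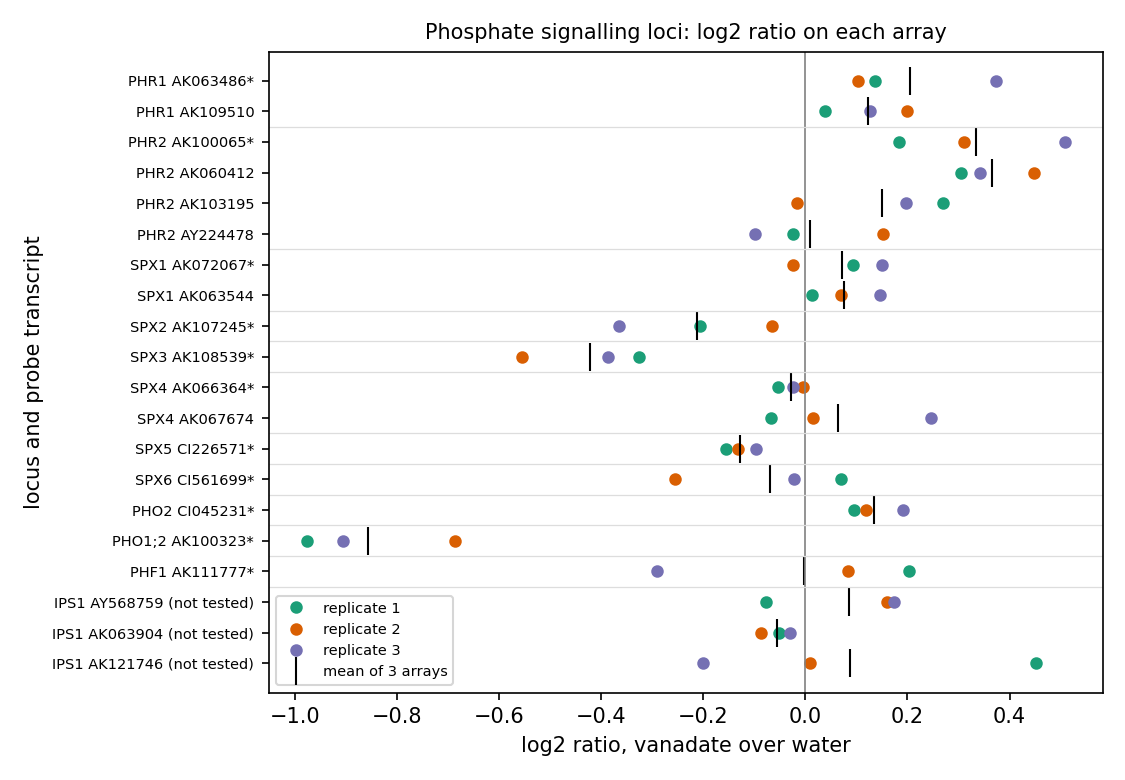
Log2 ratio of vanadate over water (x axis) for every probe of 12 phosphate signalling and traffic loci (y axis), 1 point for each of 3 arrays, with their mean as a bar and the representative probe marked by an asterisk. PHO1;2 lies between -0.98 and -0.69, SPX3 between -0.56 and -0.33, and the remaining means are within -0.21 and 0.37.

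By Euclidean distance over the 3 arrays, the tested genes outside these lists nearest to the median PHT1 profile were Os01g0347200, Os06g0718500 and Os02g0787800, at distances of 0.030, 0.073 and 0.074 among 22126 genes compared. With only 3 arrays this describes size and replicate pattern alone.

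Across the 12 other processing settings, PT1 stayed called in 12 and PT3, PT4 and PT8 in 11 each, the exception for these 3 loci being the channels taken as separate samples. PT2 stayed called in 4.

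**Figure D4:**
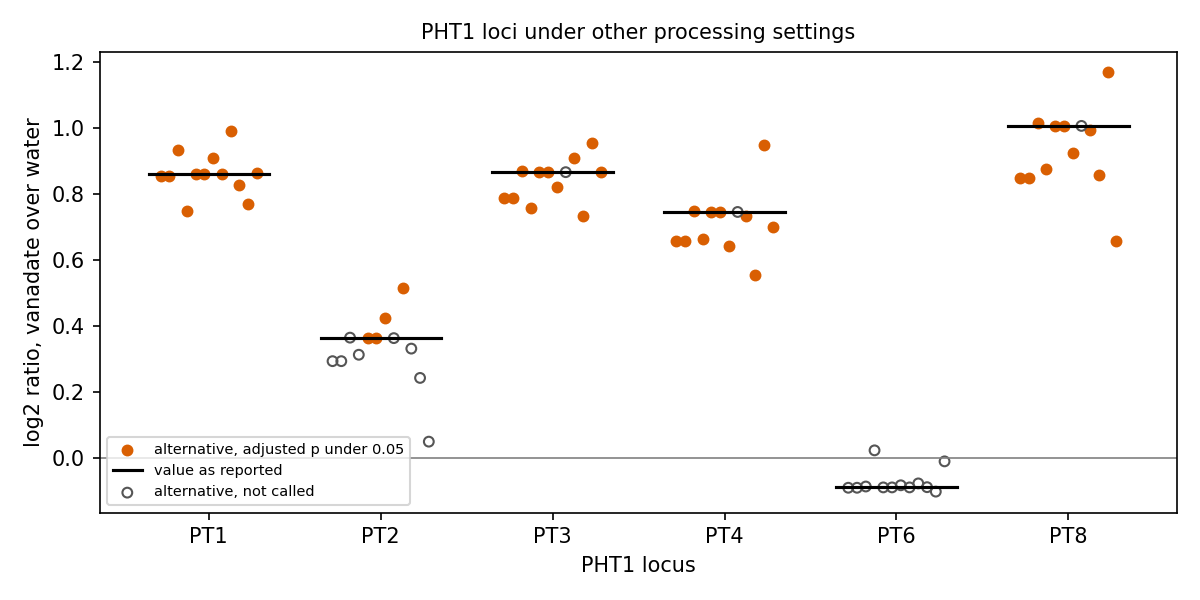
Log2 ratio of vanadate over water (y axis) of the 6 tested PHT1 loci (x axis) under 12 other processing settings, filled where the limma adjusted p was under 0.05 and open where it was not; the line is the value as reported. PT1 ranges from 0.75 to 0.99 and PT8 from 0.66 to 1.17, while PT2 ranges from 0.049 to 0.52 with mostly open points.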

How the data were processed

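The authors deposited scanner files that, per the file headers, come from Agilent Feature Extraction 10.7.1.1. They hold uncorrected median spot and local background intensity values, processed signals, and a log10 ratio of processed red over green, per the file headers. A second file, the authors' deposited table, gives log2 ratios, and on each array at least 99.1% of those matched to a probe differ by under 0.001 from log2 processed red over green. It is not centred, with medians of -0.19, -0.21 and -0.05.

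Background was corrected with normexp (offset 50) on the median signals and ratios were normalized by loess within each array (limma 3.58.1, R 4.3.3). Control spots and outlier-flagged spots were left out. Feature Extraction flagged 172, 129 and 958 of 43144 gene spots on replicates 1, 2 and 3 and marked 0 as saturated. Tests took probes with values on all 3 arrays that were well above background in water or vanadate on 2 arrays or more (31159 probes, 22150 genes). The mean log2 ratio was tested against 0 with lmFit and eBayes, Benjamini-Hochberg adjusted over all tested probes. The tested probe with the highest mean intensity stands for its locus. Channel levels are log2 values after loess and Aquantile normalization. The code was tested on simulated data. The number of arrays limits precision. Members and lists were chosen with earlier results of these data known. Named genes are all 9 members with every probe, the 4 further family loci, at most 3 called signalling loci per direction plus SPX3 and PHR2, and the 3 genes nearest in pattern. The alternatives concern background, normalization, filter, slide, pairing, probe choice and left-out replicates.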

Additional observations from a re-analysis of the deposited data

How the results depend on the processing

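PT1 kept its direction and call in all 12 alternatives, at 0.75 to 0.99, and no PHT1 locus or probe was called lower in any of them. Over the same alternatives 1444 to 6863 of all tested genes and 2087 to 9669 of all tested probes were called lower. Taking channels as separate samples (no replicate block) gives up the pairing of the RNAs on an array. Under that setting 1 PHT1 locus and 2 PHT1 probes were called higher. Its log2 ratios equal the reported ones by construction, and only the error differs. PT2, PT3, PT4 and PT8, at 0.36, 0.87, 0.75 and 1.01, were not called. That setting called 3373 genes and 4638 probes higher and 1444 genes and 2087 probes lower, and 0 signalling loci higher and 1 lower. Under median centring 4216 genes and 5706 probes were higher and 3257 genes lower. PT2 was at 0.31 and not called, and 0 signalling loci were higher and 1 lower. PT6, not called in any setting, changed sign there, at 0.023. Using Feature Extraction's processed signals or the authors' deposited table alike, 6 PHT1 probes were higher, against 6819 of all tested probes. With either, 0 signalling loci were higher and 4 lower, against 4998 genes higher and 6863 lower, and PT2 at 0.29 was not called. Both settings move the median of all genes by -0.14, and 42.1% of their gene calls are rises, against 58.5% as reported. PT2 was not called at normexp offset 10 (0.36) or as a mean over its probes (0.049). The slide as a fixed block gave 2 signalling loci higher, PHR1 and PHR2, against 6898 of all tested genes. The strict filter left 9 signalling loci and 19161 genes to test, and SPX3 was not among them. It gave 1 signalling locus lower, against 4371 of these genes. Leaving out 1 replicate gave 0.24 to 0.52 for PT2. It gave 4 to 5 PHT1 loci higher, against 5023 to 5906 of all tested genes. It also gave 7 to 9 PHT1 probes higher, against 6893 to 8180 of all tested probes. Of the signalling loci, 0 to 1 were then higher and 1 to 2 lower. Over all tested genes 2793 to 3764 were lower, and over all tested probes 4052 to 5335. Except where fewer probes or samples enter by construction, the cause was not tested. For PT5, PT7 and PT11, signal over background allows no statement on a change.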
